A study of Mus musculus with 563 samples.

Results

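Clu encodes clusterin, a secreted glycoprotein that holds misfolded proteins in solution. It is 1 of the 46078 gene entries measured here, read from its own row in each of 2 count tables. It is also 1 of 10721 genes that passed the filter on low values. This filter asked for a mean over the groups of 10 CPM or more, and for reads in 10% or more of all cells kept. CPM is counts per 1000000 nuclear gene reads. The data are single haematopoietic stem cells (HSCs) sorted from mouse bone marrow, with libraries made by a modified form of Smart-seq2. All cells came from the Gfp-Lc3 genotype, a transgene that joins green fluorescent protein to LC3 of the autophagosome membrane, and all were isolated at steady state. There was 1 young group (yHSC) and 3 old groups (oHSC), labelled LO, MID and HI. The labels used here do not say what these names rank, give no age in months, and name no animal, so each group was treated as 1 sample. Cells of a group are not replicates, and no difference below carries a test.

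Clusterin, also called apolipoprotein J, leaves the cell through the endoplasmic reticulum, binds unfolded proteins and lipids outside it, and blocks the last step of complement attack. Endocytic receptors such as megalin (Lrp2) take it up with its cargo. A form that stays inside the cell has been described to bind Bax, a protein that starts apoptosis. In mouse HSCs, Clu has been listed among the genes that are higher with age, beside the platelet gene Vwf and the adhesion gene Selp.

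In the GRCm38 build with GENCODE M21, Clu (ENSMUSG00000022037) lies on the plus strand of chromosome 14, from 65968483 to 65981547. The gene spans 13065 bp with 3437 bp of exon sequence, and the annotation holds 9 transcripts, of which 6 are coding. It overlaps 0 other annotated genes, so its reads are not shared with a gene on the other strand. Its nearest neighbours are Gulo, 5239 bp away, and Scara3, 14548 bp away, both on the minus strand. Both neighbours were below the filter on low values.

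Of 563 cells, 533 passed a filter of 50000 nuclear reads, 1000 detected genes and no more than 20% mitochondrial reads. The first table kept 63 young cells, 65 LO, 68 MID and 68 HI cells, and the second kept 71, 71, 66 and 61 in that order. Median depth per cell ran from 254723 nuclear reads (MID) to 340529 (HI). All 11 HSC markers checked, among them Procr, Slamf1 and Kit, were read in every group, with a summed level from 2841 to 3535 CPM. Endothelial markers (7 genes) summed to 229.6 to 291 CPM and megakaryocyte markers (8 genes) to 123.4 to 161 CPM over the groups, with at most 1 gene of either list at 0 (Cdh5, which defines endothelial cells, in LO, and Gp6 in 3 groups). B cell, T cell, macrophage, erythroid and stromal lists each summed to at most 83.7 CPM, dendritic markers to 66.7 to 109.7 CPM, and granulocyte and monocyte markers to 368 to 421 CPM. At least 20 reads of Y-linked genes were found in 57 of 63 young cells of the first table and in 0 of 71 of the second, where all 71 had as many Xist reads. Old cells had Y-linked reads in most cells of both tables, from 57 to 62 cells a group. In the second table, age and sex therefore cannot be told apart.

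The level of Clu was higher in each old group than in young cells, in both tables. Levels are CPM from reads summed over the cells of a group and table and scaled with TMM factors. In young cells, Clu stood at 72.4 CPM in the first table and 37.1 CPM in the second. LO cells had 459 and 552 CPM, MID cells 304 and 436 CPM, and HI cells 344 and 442 CPM. No old value fell as low as a young value. The young sums rest on 2240 Clu reads (95% Poisson interval 2148 to 2335) and the old sums on 54355 reads (53899 to 54814). Such intervals hold only the error of counting, and they are too narrow where several reads came from the same molecule.

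**Figure D1:**
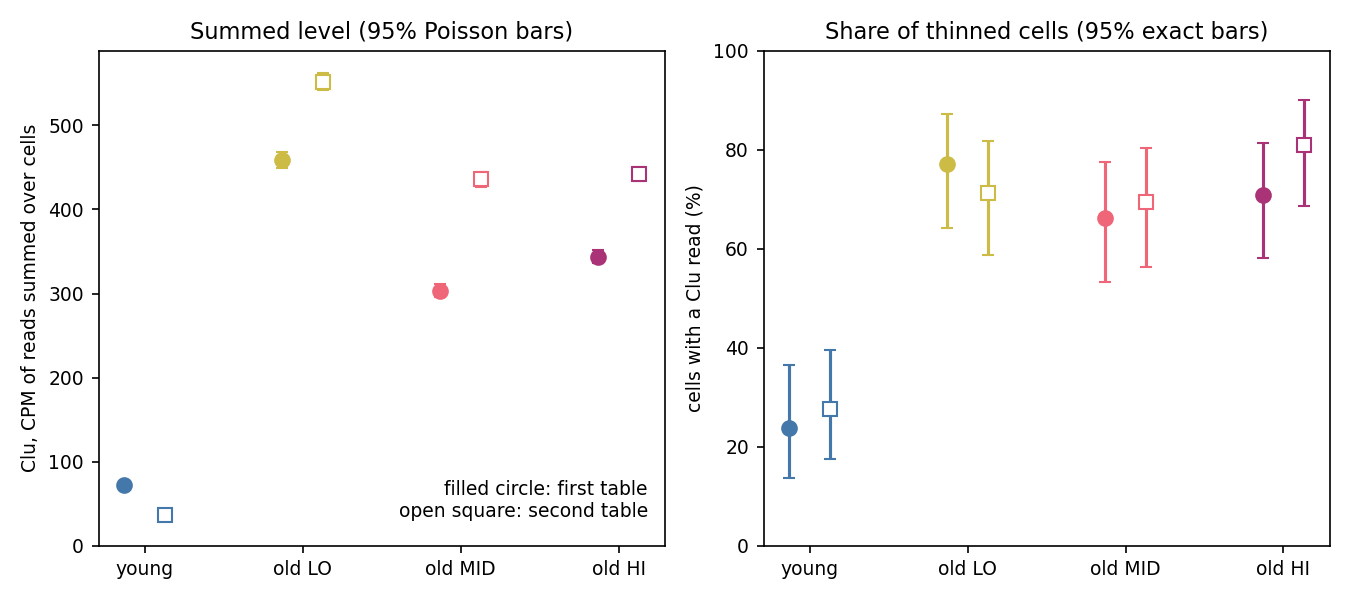
Clu by group and table. Left: Clu level in CPM of reads summed over cells, with 95% Poisson bars. Right: percent of cells with a Clu read after thinning each cell to 100000 reads, with 95% exact binomial bars. Filled circles are the first table and open squares the second. The young sums lie at 72.4 and 37.1 CPM and all 6 old sums at 304 CPM or above.

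The difference of old from young was 2.99 on log2(CPM + 1), with 2.33 in the first table and 3.65 in the second. The old level averages the 3 old groups. Each old group is set against the same young cells, so the group differences are not independent of each other. LO minus young was 3.25 (2.65 and 3.86 by table), MID minus young 2.79 (2.05 and 3.52) and HI minus young 2.89 (2.23 and 3.54). Over all 10721 genes the old minus young difference had a median of 0.02, and 95% of genes lay between -0.75 and 1.07. Clu ranked number 32 from the highest in that order. A size rule asked for a difference of at least 1, at least 0.58 with the same sign in each table, at least 20 CPM and a read in at least 20% of the cells of the higher group, and at most 20% of reads in 1 cell. By this rule Clu was higher in old, as were 1.54% of genes tested. It also met the rule as higher in LO (1.26% of genes), in MID (0.961%) and in HI (1.17%).

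Because young cells of the second table lacked Y-linked reads, the first table alone was also read over cells with at least 20 such reads. There Clu was 2.39 higher in old, and 2.73, 2.05 and 2.30 higher in LO, MID and HI. Some old cells had fewer Y-linked reads, 21 in the first table and 22 in the second. At least 20 Xist reads were found in only 1 LO, 1 MID and 4 HI cells of the first table. In the second table they were found in 3, 0 and 2 cells in that order. Few Y-linked reads thus do not by themselves mark a female cell. Old cells with few Y-linked reads were shallower in the first table (median depth 110825 against 314537 reads). At equal depth, 8 of 14 of them held a Clu read (57.1%, 95% exact interval 28.9 to 82.3), beside 72.3% of the 173 other old cells. In the second table the shares were 10 of 19 (52.6%) and 76.05% of 167. The mean number of Clu reads at that depth did not follow the shares in both tables. It was 13.5 in cells with fewer Y-linked reads against 39.3 in the others in the first table. In the second table it was 51.6 against 46.8, so its order turned between tables. The part of sex in the level of Clu was not tested beyond these values.

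Among the old groups, which the study set up to ask about autophagy engagement in old HSCs, Clu differed less than between old and young. The order of the summed levels was LO at 506 CPM, HI at 393 CPM and MID at 369.6 CPM. The HI minus LO difference was -0.37 (-0.42 and -0.32 by table), MID minus LO -0.47 (-0.60 and -0.34), and HI minus MID 0.10 (0.18 and 0.02). None met the size rule, which 1.59% of genes met as higher and 0.382% as lower in HI than in LO. For MID against LO these shares were 0.0839% and 0.0373%, and for HI against MID 1.03% and 0.196%. By summed level, LO was the highest of the 3 in each table. By the median cell it was the lowest in the second table, at 211 CPM against 239 in MID and 255 in HI. Among the 10721 genes, Clu ranked number 8954 from the highest for HI minus LO. It ranked 9810 for MID minus LO and 4388 for HI minus MID. HI and MID differed by less than the 2 tables of either group did.

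HI cells also differed from LO cells in depth and in the number with reads of cell cycle genes. Reads of at least 8 genes of the G2 and M phases were found in 49 HI cells and in 10 LO cells. Spike-in reads were 1.42% of nuclear reads in HI and 2.04% in LO. Scaled per spike-in read in place of per nuclear read, Clu was 0.13 higher in HI than in LO, so the sign of this difference turned with the scaling. Without those cells it was -0.16. Old minus young was 3.23 per spike-in read and 2.99 without such cells.

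Within each group, cells fell far apart in Clu. In young cells, 43 of 63 in the first table and 43 of 71 in the second had no Clu read. Of 399 old cells, 90 had none: 32 LO, 35 MID and 23 HI cells. The median young cell was thus at 0 CPM in both tables. The median old cell had 275 and 211 CPM in LO, 173 and 239 CPM in MID, and 165 and 255 CPM in HI. The highest young cells reached 733 and 921 CPM. In LO the highest cells had 2876 and 2849.9 CPM, in MID 1765 and 3100.5 CPM, and in HI 1586 and 1976 CPM. The ranges of young and old cells overlapped, because both held cells at 0 and cells above 100 CPM.

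**Figure D2:**
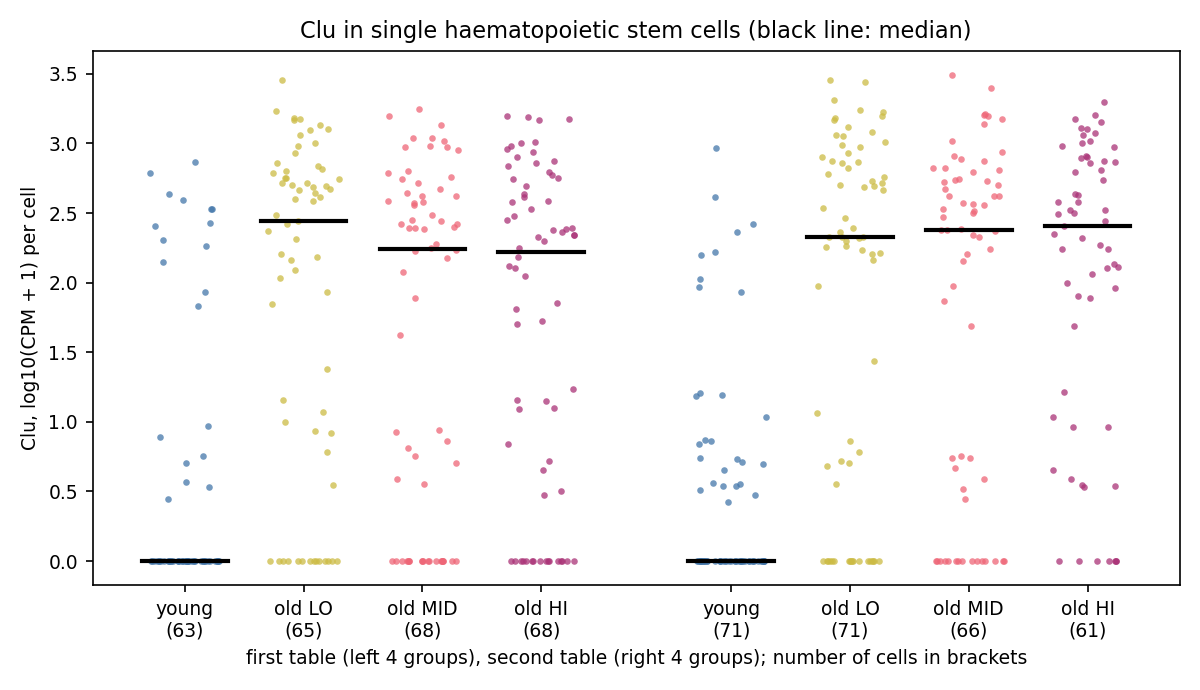
Clu per cell, as log10(CPM + 1), by group and table. Each point is 1 of the 533 cells and black lines are medians. Young medians lie at 0 in both tables, and most old cells lie above 100 CPM, with the rest at 0 (90 cells), at over 0 to 10 CPM (39) or at 10 to 100 CPM (28).

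Most old cells, and few young cells, reached 100 CPM. Cells with at least 100 CPM numbered 18 in young (13.4% of cells), 85 in LO (62.5%), 79 in MID (58.96%) and 78 in HI (60.5%). Below that, 7 young and 28 old cells lay from 10 up to 100 CPM, and 23 young and 39 old cells had reads but less than 10 CPM. The bounds of 10, 100 and 1000 CPM were chosen after the values were seen. The cells at 100 CPM or more held 95.04% of Clu reads in young and 98.97% in old cells. Cells at 1000 CPM or more numbered 0 in young, where 3 cells would be 2.24%, the limit that a count of 0 allows, and 52 of 399 in old (13.03%): 23 LO, 14 MID and 15 HI cells.

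Both the number of cells with Clu and the level in those cells were higher in old. Among cells with at least 100 CPM, the median was 265 CPM in young, 552 in LO, 421 in MID and 464 CPM in HI. To compare shares at equal depth, cells were drawn down to 100000 nuclear reads, and 32 of the 533 cells were too shallow for this. A Clu read was then found in 33 young cells (25.8%, 95% exact interval 18.5 to 34.3). The shares were 73.98% in LO (65.3 to 81.5), 67.7% in MID (58.8 to 75.7) and 75.6% in HI (67.05 to 82.9). The share in young cells was the lowest of the 4 in each table, at 23.7% and 27.5%, beside 66.2% to 81.03% in the 6 old sets. The intervals cover counting error alone and are no test between groups. Without thinning the shares were 35.8%, 76.5%, 73.9% and 82.2%.

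The ratio of mean thinned reads, old to young, was 7.98. It split into a 2.81-fold higher share of cells with a read and a 2.84-fold higher mean in those cells. In the first table the ratio of 5.33 split into 2.997 and 1.78, and in the second the ratio of 12.3 into 2.67 and 4.59. With 1 read as the bound, the share ratio was thus alike in both tables. With a bound of 100 CPM it was not: 17.5% and 9.86% of young cells reached it in the first and the second table, and 58.2% and 63.1% of old cells. For HI against LO the share ratio was 1.02 and the level ratio 0.759. By table, the shares of cells with a read were 70.8% in HI and 77.2% in LO in the first, and 81.03% and 71.2% in the second, so their order turned between tables.

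A small number of cells carried the young values. The 7 highest of 63 young cells held 79.5% of Clu reads in the first table, and the 8 highest of 71 held 93.6% in the second. In the 6 old sets the 7 or 8 highest cells held 41.4% to 48.8%. A lone young cell of the first table held 32.2% of its table's young Clu reads, and without it old minus young was 3.24. Leaving out each of the 533 cells in turn gave 2.96 to 3.24.

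Set beside other genes, Clu was among the most uneven between old cells. The standard deviation of log2(CPM + 1) over cells was 3.95 and 4.20 in LO, 4.09 and 4.05 in MID, and 3.87 and 3.49 in HI. Of the 10721 genes, 4, 0 and 5 exceeded it in LO, MID and HI of the first table, and 2, 1 and 85 did in the second. In young cells it was 3.25 and 2.61, where 1641 and 6749 genes exceeded it. Clu was thus near the top of this order in every old set and in neither young set.

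The spread depends on the level, so Clu was also set beside genes with 0.8 to 1.25 times its own CPM in the same cells. In the 6 old sets, 84 to 276 such genes had a read in a median of 95.6% to 99.3% of cells. Clu had one in 70.6% to 88.5% of the same cells. Between 0 and 3 of these genes were found in as few cells as Clu, and between 0 and 2 had as large a standard deviation. Their median standard deviation was 1.42 to 2.24. In young cells, 669 of 1822 and 1630 of 1852 genes at the level of Clu had at least its standard deviation. All these values come from the same cells and are a description of these sets.

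**Figure D3:**
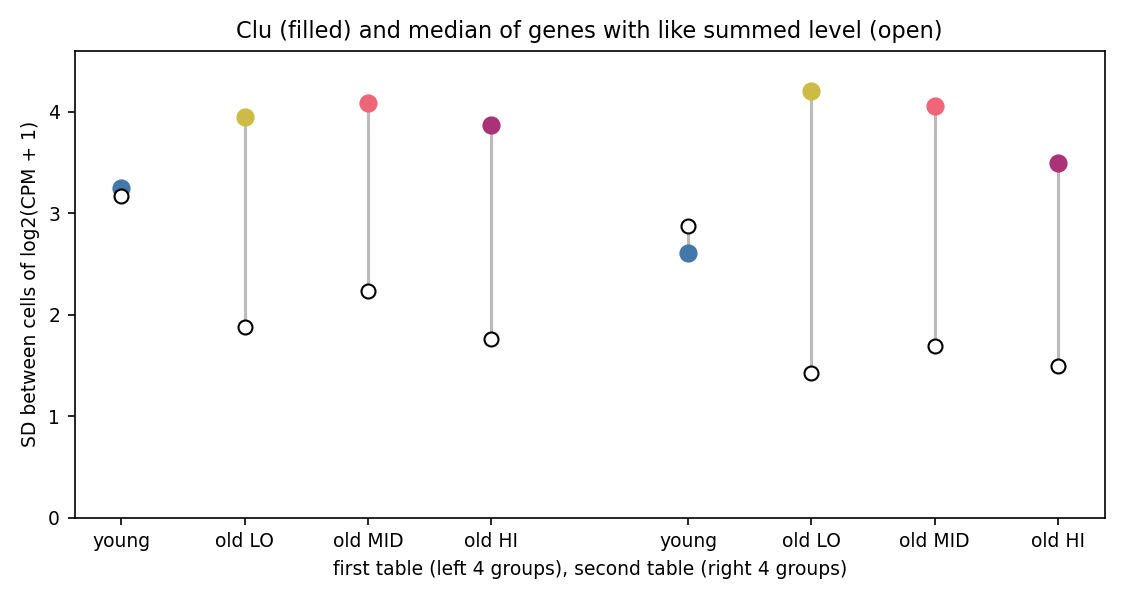
Standard deviation of log2(CPM + 1) between cells, by group and table. Filled points are Clu and open points the median of genes with 0.8 to 1.25 times its summed level in the same cells. Clu lies at 3.49 to 4.20 in the 6 old sets, above medians of 1.42 to 2.24, and near the median in both young sets.

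Genes that vary with Clu from cell to cell were read in old cells, within each group and table, so that neither age nor table could set the value. Spearman's rho with Clu was taken over the 61 to 71 cells of each of the 6 sets and averaged. Cells of a set share an unknown number of animals, and values near 0 reads hold many ties. Over 10720 other genes the mean rho had a median of 0.02, and 95% lay between -0.10 and 0.14. A mean of at least 0.2 in size, with 1 sign in all 6 sets, was reached upward by 49 genes (0.457% of genes) and downward by 9 (0.084%). The highest mean was 0.41.

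Vwf, the adhesive glycoprotein of platelets and endothelium that also marks HSCs biased to platelets, was the gene most like Clu. Its rho was 0.48, 0.27 and 0.39 in LO, MID and HI in the first count table, and 0.37, 0.43 and 0.54 in the second. It was also 0.44 and 0.32 in young cells, which were not used to choose it. The level of Vwf was 135.5 and 74.9 CPM in young, 402 and 475 in LO, 357 and 400.3 in MID, and 359 and 414 CPM in HI. Vwf was thus higher in every old sum than in either young sum, with old minus young at 1.98 (1.45 and 2.51), and met the size rule. At 100 CPM, a bound chosen after the values were seen, 211 of the 284 old cells with Vwf also had Clu (74.3%), against 31 of the old cells without (26.96%). Among young cells these counts were 11 of 35 (31.4%) and 7 of 99 (7.07%). Cells with 1 of the genes and not the other were therefore present in both ages.

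**Figure D4:**
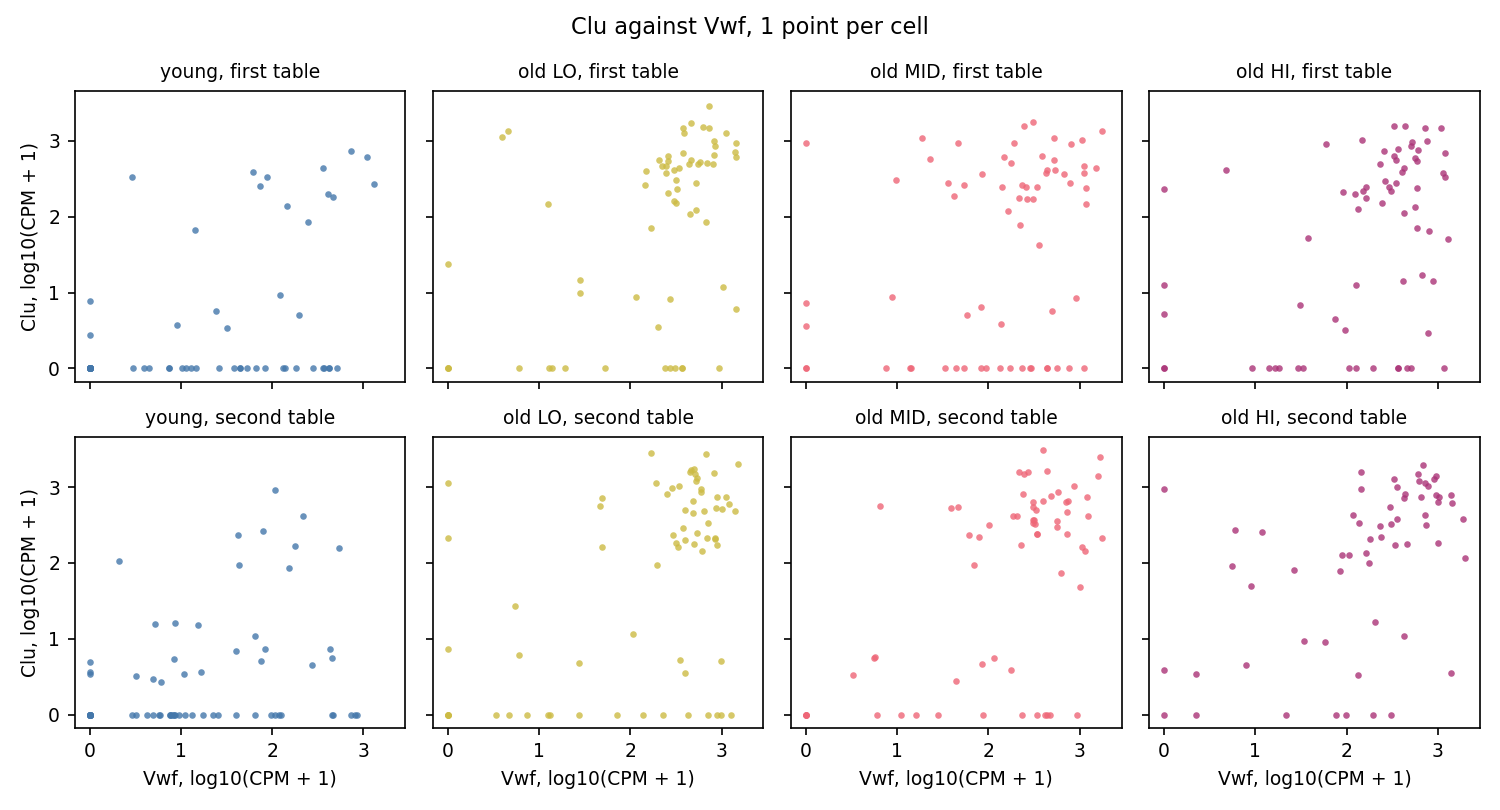
Clu against Vwf in each cell, both as log10(CPM + 1), in 8 panels by group (columns) and table (rows). Old cells gather where both genes are high, with further cells high in Vwf and at 0 for Clu. Spearman's rho is 0.27 to 0.54 in the 6 old panels and 0.44 and 0.32 in the young panels.

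The other 11 of the 12 highest genes had mean values from 0.26 to 0.32. Ehd3, an ATPase of endosome recycling, had a mean rho of 0.32, Cldn5, a tight junction protein, 0.29, Itgb3, the integrin chain of platelets and HSCs, 0.27, and Jam2, a junction adhesion molecule, 0.26. Sbspon, a secreted protein with a thrombospondin repeat, had 0.31, Tc2n 0.31, and Zg16, a secretory lectin, 0.30. The others were Sult1a1, a sulfotransferase, at 0.27, Mindy1, a deubiquitinase, at 0.27, Nbea, a vesicle traffic protein, at 0.27, and Ftsj1, a transfer RNA methyltransferase, at 0.26. Each of these had at least 1 of its 6 old values under 0.2, while the lowest value of Vwf was 0.27. By the size rule, 9 of these 12 genes were also at a higher level in old cells (1.54% of all genes), among them Sbspon at 4.45 and Cldn5 at 2.69. Zg16 was another, with no read in young cells of the first table. Mindy1 (0.53), Nbea (0.46) and Ftsj1 (-0.06) did not meet it.

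Genes that ran against Clu were fewer. The lowest means were those of Gpx1, a glutathione peroxidase, at -0.27, and Vim, the intermediate filament vimentin, at -0.26. Cmtm7 followed at -0.24, Ptpre, a protein tyrosine phosphatase, at -0.23, Coro1a, an actin regulator of white blood cells, at -0.23, and Rnase6 at -0.22. The level of Rnase6 was 66.7 and 52.6 CPM in young and 13.03, 9.99 and 9.63 CPM in LO, MID and HI, and it was the only 1 of the 9 lower in old by the size rule (0.317% of genes). Ikzf1, the lymphoid factor Ikaros, was at -0.21 and Lsp1, a leukocyte actin protein, at -0.21.

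**Figure D5:**
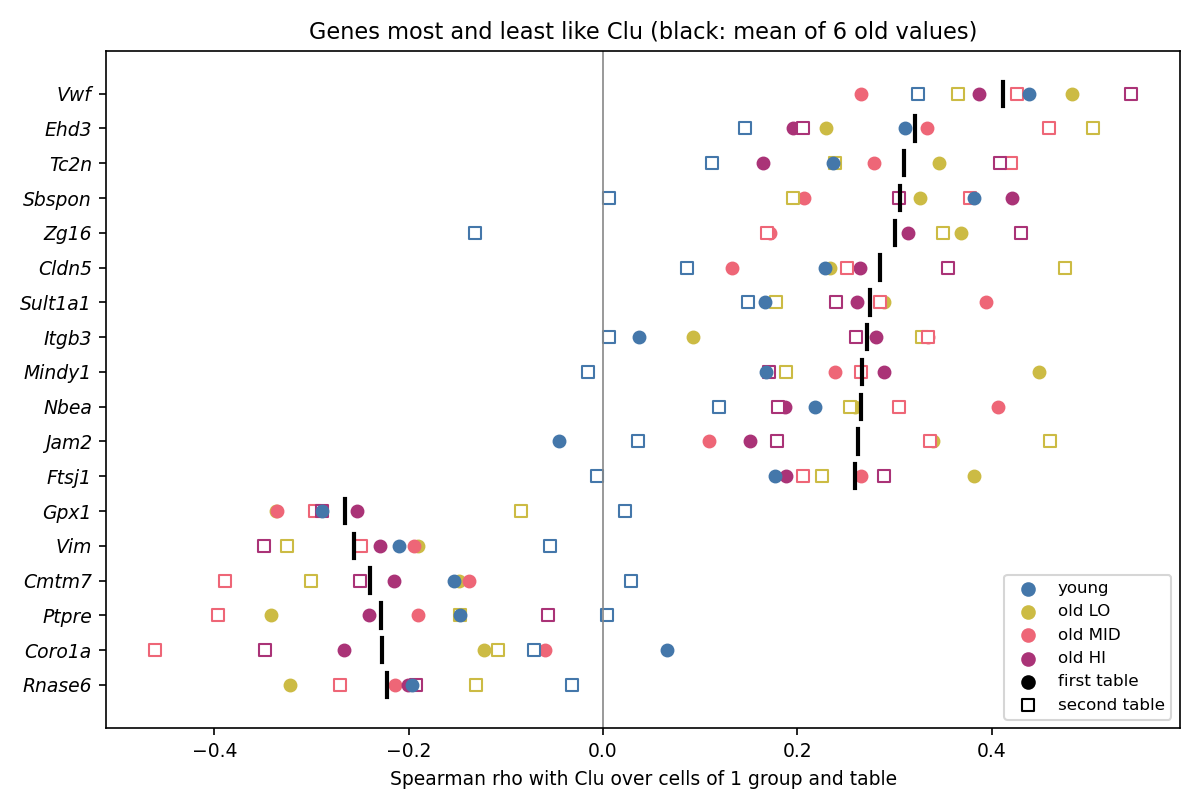
Spearman's rho with Clu over the cells of each group and table, for the 12 genes with the highest and the 6 with the lowest mean in old cells. Filled circles are the first table, open squares the second, colours the groups, and black bars the mean of the 6 old values. Vwf has the highest mean (0.41), and young values, in blue, were not used to choose the genes.

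Genes chosen in either table were then read in the other. The same bound, asked of the 3 old sets of the first table alone, was reached upward by 1.48% and downward by 0.187% of genes, and in the second table by 1.33% and 0.457%. The 20 genes with the highest mean rho in the first table had a median of 0.27 there and of 0.20 in the second, where the median of all genes was 0.01 and all 20 were above 0. Those chosen in the second table had 0.30 there and 0.21 in the first, also with 20 of 20 above 0. The median of all genes in the first table was 0.03, so most genes were above 0 in either table. The lowest single value in the other table was 0.003, and 5 genes were in both lists of 20. In young cells, 41 of the 49 upward genes had a mean rho above 0, with a median of 0.14. The share of all genes above 0 in young cells is not given here. There the bound of 0.2 was reached upward by 2.85% and downward by 0.41% of genes. A lean above 0 among genes in general is thus not separated from these 41. The upward genes below 0 in young cells were Osmr (-0.10), Vipr2 (-0.08), S100a1 (-0.07), Camsap3 (-0.04), Rftn1 (-0.03), Mycn (-0.01) and Jam2 (-0.005). Zg16 had a value in the second table only (-0.13). Of the 49 genes, 26 were higher in old by the size rule and 0 lower, beside 1.54% and 0.317% of all genes, with a median old minus young difference of 1.21. The same old cells enter both measures.

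Across the 8 sums, the genes whose levels were most like those of Clu were Vwf (Pearson's r of log2(CPM + 1) 0.996), Plek (0.995), Nupr1 (0.995), Mpp6 (0.987) and Selp (0.985). Every old sum of Clu lay above both young sums, and this step enters such values. How far the order among the old sums adds to them was not tested. Within old cells, Plek, the platelet protein pleckstrin, had a mean rho with Clu of 0.01, and Mpp6 0.09. Nupr1, a stress-induced nuclear protein, had 0.18, and Selp, the adhesion molecule P-selectin, 0.13. By mean rho among 10720 genes, Vwf ranked number 1, Nupr1 75, Selp 340, Mpp6 1387 and Plek 6493. A like level over groups thus came with a like pattern over cells to a varying degree, most for Vwf and least for Plek. Among the 12 genes with the highest mean rho, r over the 8 sums ran from -0.20 (Ftsj1) to 0.996 (Vwf).

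Genes known as higher in old HSCs were read as a list of 34, chosen from earlier studies and with results of these data known. Of these, 30 met the size rule as higher and 0 as lower, beside 1.54% and 0.317% of all genes, with a median difference of 2.52. Their median rho with Clu was 0.18, against 0.02 over all genes. Of the 34, 33 were above 0, as were most of all genes, whose median was above 0. Among the 49 were 13 of them, beside 0.457% of all genes. Matn4, a matrix protein whose gene overlaps Rbpjl on the other strand, stood at 0.22. Aldh1a1, a retinaldehyde dehydrogenase at 64.4 and 96.3 CPM in young and 457, 413 and 433 CPM in LO, MID and HI, was 2.45 higher in old, and its rho was -0.03. A large difference by age thus did not always come with a tie to Clu inside the old groups.

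Platelet and megakaryocyte genes were mixed. Of 28 genes, 22 passed the filter on low values, 5 were higher and 0 lower in old by the size rule, beside 1.54% and 0.317% of all genes. Vwf and Itgb3 alone were among the 49 genes that varied with Clu (0.457% of all genes), and the median rho was 0.06. Genes of mature platelets stood near 0, with Pf4, a platelet chemokine, at -0.01, Gp9 at -0.06 and Gp5 at -0.07. Cells with reads of at least 3 megakaryocyte markers made up 11.9% of young and 14.7% to 24.03% of old cells, and those with 3 endothelial markers 18.7% to 26.9%. Without cells that held 3 markers of any other type, Clu was 3.32 higher in old, and the rho of Vwf was 0.39.

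HSC identity genes had a median rho of 0.06 (20 of 20 genes above the filter), with none among the 49. Slamf1, the surface marker CD150, had the highest mean, 0.22, with a range from -0.03 to 0.48. Of 7 genes of multipotent and lymphoid priming that passed the filter, 0 had a mean above 0. Their median was -0.13, beside 0.02 over all genes. Ikzf1 and Lsp1 were among the 9 downward genes (0.084% of all genes), while Cd34, Notch1 and Plac8 were between -0.06 and -0.04, with values of both signs over the sets. By level, Cd34 was lower in old by the size rule (-1.08), and all 7 differences were below 0. The 6 myeloid priming genes had a median rho of 0.03, and Prtn3, the protease proteinase 3, met the size rule for old against young (1.05 higher). Spi1, the transcription factor PU.1, met it as lower in HI than in young, at -1.11 (-0.75 and -1.47 by table), as did 0.709% of genes.

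Clusterin receptors were followed as a list of 10 genes, of which 6 passed the filter. Vldlr, a lipoprotein receptor, stood at 43.4 and 46.05 CPM in young, 211 and 261 in LO, 283 and 176 in MID, and 201 and 188 CPM in HI. It was the only member to meet the size rule, 2.27 higher in old (2.39 and 2.15), with every old sum above both young sums. Over old cells its rho with Clu was -0.11, from -0.19 to 0.01, so the cells with more Vldlr were not those with more Clu. Sort1 (sortilin) was at -0.31 (-0.24 and -0.38 by table) and Lrp8 at -0.26 (-0.17 and -0.36). Tlr4 was at -0.28 (-0.66 and 0.10) and Plxna4 at 0.14 (-0.64 and 0.92), with opposite signs in the 2 tables. None of these met the rule. Lrp2 and Trem2 were hardly read: Lrp2 had at most 0.49 CPM in young cells and Trem2 was listed at 0 CPM in young and at most 0.05 CPM in an old group.

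Other genes of the pathways of clusterin were read by the same rule, which 1.54% of all genes met as higher and 0.317% as lower in old, so that a count of 0 in a short list says little. Of 16 chaperones of the endoplasmic reticulum and the secreted space, 14 passed the filter and 0 met the rule in either direction, with a median difference of 0.40. Pdia3, a disulfide isomerase, had 0.61, Calr (calreticulin) 0.57 and Hspa5, the chaperone BiP, 0.14. Their median rho with Clu was 0.02, equal to that of all genes at this rounding. Complement genes and inhibitors gave 0 of 6, with Cd55, a complement decay factor on the cell surface, at 1.02 but only 0.50 in the second table.

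Of the apolipoprotein and lipid genes, 8 of 16 passed the filter and 0 met the rule for old against young. Apoe, an apolipoprotein that unlike Clu was read in nearly every cell, stood at 854 and 1105 CPM in young. It stood at 1605, 1383 and 975.02 CPM in LO, MID and HI, with old minus young at 0.44. Over old cells it varied weakly with Clu, at a mean rho of 0.196 and from 0.12 to 0.29 in the 6 sets, just under the bound of 0.2. In young cells its rho was 0.46 and 0.06. Lpl, lipoprotein lipase, was 2.49 higher in old at a level under 30 CPM in every group and did not meet the rule for all old cells, but did for HI against young, at 3.05 (4.12 and 1.97 by table).

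Apoptosis genes described as partners of clusterin inside the cell gave 0 of 10 by the size rule, with Bax at 0.33, Bcl2 at 0.80 and Xrcc6 at -0.07. Bcl2, the inhibitor of cell death, had the highest mean rho of the list, 0.18. Factors reported to act on Clu transcription gave 0 of 19 by the size rule for old against young, with a median difference of 0.03. Hsf1, the heat shock factor, was at 0.13, Stat3 at 0.43, Egr1 at 0.42, Fos at -0.56 and Jun at -0.14. In HI against young, Fos met the rule as lower, at -1.33 (-1.67 and -0.99 by table). Mycn was the only 1 of the 19 among the genes that varied with Clu (rho 0.24, from 0.04 to 0.40), with old minus young at 0.51.

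Clu was only weakly related to the general state of the cells. Over the old sets its mean rho was 0.10 with nuclear reads (-0.05 to 0.26) and 0.13 with genes detected (-0.02 to 0.24). With the number of G2 and M phase genes it was -0.03, and the 30 genes of that list had a median rho of -0.02. The 24 S phase genes had -0.05. For the reporter transgene, the rho of Clu with eGFP reads was -0.17 and -0.11 in LO, -0.11 and -0.15 in MID, and 0.16 and 0.12 in HI (first and second table). The rat Map1lc3b sequence gave -0.18 and -0.06 in LO, -0.14 and -0.12 in MID, and 0.13 and 0.07 in HI. Both transgene sequences were thus below 0 in the 4 LO and MID sets and above 0 in the 2 HI sets, and none was over 0.2 in size. The difference in sign between HI and the other old groups was not tested.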

How the data were processed

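Raw counts of reads for each gene and cell were deposited by the authors in 2 tables, without molecular identifiers. Tools named in the submitters' processing notes are featureCounts 2.0.0, STAR 2.7.3a, DESeq2 and Subread, with mm10 as the build and no role for each. The treatment of reads in overlapping genes is not given in the sources used here. Identifiers matched GENCODE M21 for 45229 of 46078 entries, and 37 mitochondrial genes stayed out of the totals.

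Counts of kept cells were summed by group and table, which gave 8 sums, scaled with TMM factors (edgeR 4.0.16, R 4.3.3). Differences were taken within each table on log2(CPM + 1) and averaged. Other steps used SciPy 1.17.1, pandas 2.3.3 and NumPy 2.4.6 in Python 3.11.15, and matplotlib 3.10.9 for plots. Intervals are exact, Poisson for reads and Clopper-Pearson for shares, at 95%, and cover counting error only. Where no cell was found, 3 counts set the upper limit. No doublets were called, since cells were sorted singly. The scripts were tested on simulated data.

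Clu, the gene lists and the rules were chosen with earlier results of these data known. Named genes are the 12 highest and 6 lowest by mean rho, the 5 most like Clu over the 8 sums, extremes of each list and a fixed set of genes, while further list members are named as examples. Alternatives were median-ratio size factors, spike-in scaling, no composition factors, pseudocounts of 0.1 and 10 CPM, a mean over cells, other cell and level filters, each table alone, other thinning, sets of cells left out, and Pearson or partial correlation. A member of the receptor list is not reported here.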

Additional observations from a re-analysis of the deposited data

How the results depend on the processing

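Under each of 14 alternatives, the size rule placed Clu higher than in young for all old cells together and for LO, MID and HI. The differences ranged from 2.33 to 3.65, from 2.65 to 3.86, from 2.05 to 3.52 and from 2.23 to 3.54, with the ends set by the single tables or the cells with Y-linked reads. HI minus LO never met the rule and ranged from -0.43 to 0.13. The share of cells with a Clu read was 35.8% in young cells without thinning, and 17.2% in young and 65.04% in LO cells where at least 5 reads were asked for.

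The count of genes that varied with Clu depended on the cells used. Upward genes were 0.457% of those tested (49 genes). They became 0.718% without cells that held markers of other types (28 of the 49 shared), 1.48% in the first table alone (33 shared), 1.33% in the second (42 shared) and 2.85% in young cells (12 shared). Downward genes were 0.084% (9 genes). They became 0.14% after depth and genes detected were regressed out (9 of the 9 shared) and 0.0466% with Pearson's r (5 shared). Without cells with other markers they were 0.252% (5 shared). In the first and the second table alone they were 0.187% and 0.457% (6 shared in each). In young cells they were 0.41%, with 0 of the 9 shared. Fewer cells or sets enter each of these apart from the regressed and Pearson values, and the cells that are read also differ. What moved the counts was not tested. In young cells, 8 of the upward genes had a mean rho below 0 or no mean, and the cause was not tested. Means below 0 included -0.10 for Osmr, -0.08 for Vipr2, -0.07 for S100a1, -0.00466 for Jam2 and -0.00995 for Mycn. Zg16 had no mean there, since only the second table gave a value (-0.13), with reads in 1.49% of young cells. The genes meeting the size rule as higher in old fell from 165 to 66, and as lower from 34 to 11, when at least 50 CPM and 25% of cells were asked for.

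No paired analysis was possible because the cell numbers in the labels only name cells and no result comes from a test. Depth limits what is said of cells without a Clu read: at 100000 reads, cells with few Clu molecules can be missed. No label names an animal, so the spread between animals is not known.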
